A study of Mus musculus with 35 samples.

Results

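Urolithin A given to aged 3xTgAD/Polb+/- mice was compared with vehicle in the hippocampus, across all 760 genes of a NanoString panel. The treated group held 6 mice (2 males and 4 females) and the vehicle group 7 mice (4 males and 3 females), and these 13 of the 35 mice of the series were taken by their genotype and treatment labels. No single gene passed the threshold after adjustment for 760 tests. The genes with the smallest p included lower levels of the cytoskeletal gene Add2 and of the calcium handling genes Slc8a2 and Atp2b1. They also included higher levels of the survival gene Bcl2, the R-spondin receptor gene Lgr5 and the synaptic vesicle gene Rab3c. The measured differences were small, and none of the 760 reached 1 on the log2 scale, which is a 2-fold difference.

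All 35 mice were 18 months old and on a C57BL6/J background. The 3xTgAD line carries the transgene Tg(APPSwe,tauP301)L1Lfa with human APP and MAPT sequences. The 3xTgAD/Polb+/- mice carry the same alleles and are heterozygous for Polbtm1Rsky, so both groups compared here share the alleles of the 3xTgAD line and the loss of 1 Polb copy. Urolithin A was given by oral gavage at 200 mg/kg per day for 5 months. The other groups were 7 vehicle-treated wild-type mice, 8 vehicle-treated 3xTgAD mice and 7 3xTgAD mice given Urolithin A; no wild-type mice given Urolithin A were analysed here. In this line the human transgenes are driven by a neuronal Thy1 promoter, so the human proteins are made mainly in neurons. RNA came from whole tissue, in which fewer cells of a type and less RNA per cell cannot be told apart.

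Urolithin A is a metabolite that gut bacteria make from plant ellagitannins, and it is best known as an inducer of mitophagy, the autophagic removal of damaged mitochondria. DNA polymerase beta, the product of Polb, fills the gap left when a damaged base is cut out in base excision repair, and the heterozygous mice have less of that repair capacity. The hippocampus is an early site of amyloid and tau pathology, where synapses, glia and protein clearance are among the processes the panel was designed to cover.

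The files hold 1 normalized log2 value for each gene in each mouse, and a difference of 1 is a 2-fold difference. Within the 13 mice, the median over genes lay between 8.75 and 9.09 in each mouse. The first principal component of the 13 mice held 45.8% of the variance, and its correlation with the mean of 35 oligodendrocyte and myelin genes was 0.97 across these mice, given as a description. The treated group held both ends of it, treated mouse 5 at 10.5 and treated mouse 6 at -9.30, next to vehicle mouse 1 at -8.74. The tissue label could be checked on few genes, since 1 of the listed hippocampal neuron markers (Bok) and 2 of the listed striatal markers (Adora2a and Pde1b) were measured. Of the listed markers of thalamus and other regions only Cbln1 was measured. Levels of the targeted gene Polb were not analysed here. App, the amyloid precursor gene, was 13.85, 13.97 and 14.07 (lowest, median and highest) in treated mice and 13.65, 13.97 and 14.08 in vehicle mice. Mapt, which encodes tau, was 0.10 higher in the treated group (SE 0.13, limma adjusted p = 0.953). The treated and vehicle groups overlapped for both genes.

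Each gene was tested with limma on the log2 values, with the 5 groups and sex in 1 model over all 35 mice. By Benjamini-Hochberg adjustment 0 of 760 genes (percent called 0) passed 0.05, and the smallest adjusted p was 0.238. At an unadjusted p below 0.05 there were 43 genes (5.66%), where a 5% rate would give 38. Of these, 21 (2.76%) were higher and 22 (2.89%) lower in the treated mice. Over all genes 354 (46.6%) had a higher and 406 a lower sex-adjusted mean with Urolithin A, with a median log2 difference of -0.01. After centring every mouse on its own median, 413 genes had a higher mean, so which direction held the majority changed with this scaling. A permutation of treatment within sex, exact over all arrangements of the 13 mice, gave 53 genes at an unadjusted p below 0.05 and 0 after adjustment (smallest adjusted p 0.445).

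The median 95% confidence interval reached 0.31 on the log2 scale to each side, or 1.24-fold. For 453 genes (59.6%) the whole interval lay within 0.5 of no difference, and for 719 it lay within 1. For the other 41 genes the interval reached a 2-fold difference in at least one direction. A p above the threshold therefore does not show that a gene was unaffected, and for most genes it leaves room only for differences under 0.5. When weights for single mice were estimated from the data, 20 genes passed the adjusted threshold, 8 higher and 12 lower. Those weights ran from 0.368 for treated mouse 6 to 3.11 for vehicle mouse 3, so calls at the adjusted threshold depended on how much each mouse counted.

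**Figure D1:**
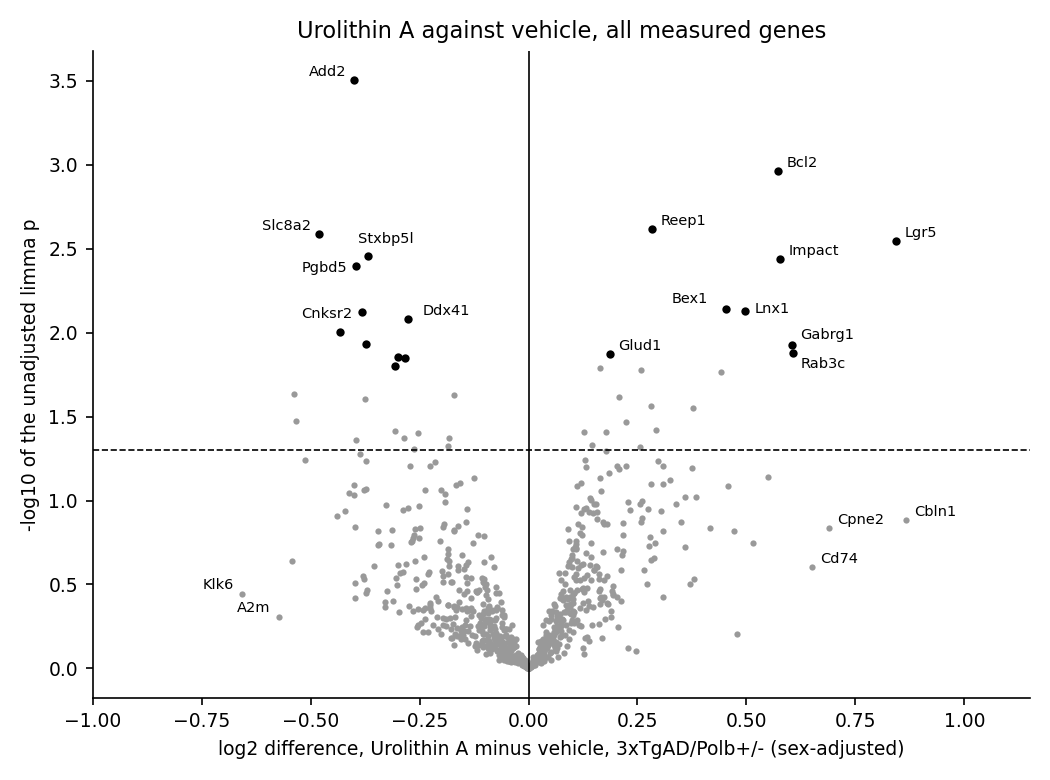
The sex-adjusted log2 difference (Urolithin A minus vehicle, x axis) is plotted against -log10 of the unadjusted limma p (y axis) for each of 760 genes in 3xTgAD/Polb+/- mice, with the 20 smallest p in black and a dashed line at the unadjusted 0.05 mark. 43 points lie above the line, with Add2 (-0.40) the highest of them and with differences from -0.54 (Epha4) to 0.84 (Lgr5), and the widest differences (Cbln1 0.87, Klk6 -0.66) lie below it.

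Add2 had the smallest p of all 760 genes. It encodes beta-adducin, which caps actin filaments and ties them to spectrin under the membrane. Its level was 9.98, 10.36 and 10.62 (lowest, median and highest) in the 6 treated mice and 10.49, 10.79 and 11.00 in the 7 vehicle mice. Of the treated mice 5 lay below every vehicle mouse, and only treated mouse 6 lay inside the vehicle range. The log2 difference was -0.40 (SE 0.10, 95% interval -0.60 to -0.20), a ratio of 0.758, with a limma adjusted p of 0.238. Without treated mouse 6 it was -0.46, with an adjusted p of 0.0436, the 1 case among 13 single-mouse omissions in which any gene passed. Over all settings tried the adjusted p of Add2 ran from 0.00800 to 0.990.

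Genes of calcium transport and of the postsynaptic side were lower among the leading 20. Slc8a2 encodes the neuronal sodium-calcium exchanger NCX2, and was 10.42, 10.63 and 11.28 in treated mice against 10.84, 11.30 and 11.69 in vehicle mice. The treated mice lay mostly below, with 4 of 6 under the lowest vehicle mouse, and the log2 difference was -0.48 (SE 0.15, adjusted p = 0.381). Atp2b1, which encodes a plasma membrane calcium pump, was 12.15, 12.31 and 12.60 against 12.20, 12.96 and 13.22, a difference of -0.43 (SE 0.16, adjusted p = 0.563). The groups of Atp2b1 overlapped, but the highest treated mouse was below the vehicle median. Cnksr2, a scaffold of the postsynaptic density, differed by -0.38 (SE 0.13, adjusted p = 0.519). Chn1, which encodes chimaerin, an inactivator of the GTPase Rac in dendrites, differed by -0.37 (SE 0.14). Stxbp5l encodes tomosyn-2, a brake on vesicle fusion, and was 8.18, 8.42 and 8.76 against 8.64, 8.74 and 9.08. As for Add2, treated mouse 6 was the only treated mouse inside the vehicle range of Stxbp5l, and the difference was -0.37 (SE 0.12, adjusted p = 0.381).

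The other leading genes with lower levels were of mixed function. Pgbd5, a domesticated transposase gene expressed in brain, differed by -0.40 (SE 0.13). Ddx41, an RNA helicase gene, differed by -0.28, and Rb1, the retinoblastoma cell-cycle gene, by -0.30. Prex2, which encodes an activator of Rac, differed by -0.28 and Rasal2, which encodes an inactivator of Ras, by -0.31. Their SE lay between 0.10 and 0.13 and their adjusted p between 0.381 (Pgbd5) and 0.569 (Rasal2), so none passed.

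Bcl2 had the smallest p among genes with a higher level. It encodes the anti-apoptotic protein of the outer mitochondrial membrane. Its level was 6.57, 6.86 and 7.01 in treated mice and 5.41, 6.16 and 6.70 in vehicle mice. The highest vehicle mouse was exceeded by 4 of 6 treated mice, and the lowest values were those of vehicle males. The log2 difference was 0.57 (SE 0.16, 95% interval 0.25 to 0.90), a fold of 1.49, with an adjusted p of 0.381. The apoptosis list had 2 members higher and 2 lower, and Mcl1, an anti-apoptotic relative, differed by -0.12 (SE 0.13).

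The treated and vehicle mice did not overlap for 2 of 760 genes (0.263%), Impact and Lnx1, both higher with Urolithin A. Impact encodes an inhibitor of GCN2, the kinase that reports amino acid shortage to the translation machinery. Its level was 11.17, 11.26 and 12.26 in treated mice and 10.40, 10.93 and 11.11 in vehicle mice, a difference of 0.58 (SE 0.18, adjusted p = 0.381). The highest value was that of treated mouse 2, and without it the difference was 0.39. Lnx1 encodes a ubiquitin ligase for Numb, and was 7.50, 7.63 and 7.67 against 6.52, 7.00 and 7.49, a difference of 0.50 (SE 0.17, adjusted p = 0.519). The treated mice lay in a narrow band just above the highest vehicle mouse. The exact permutation p within sex was 0.00190 for both genes, the smallest that the arrangements can give, and was 0.445 after adjustment over 760 genes. Genes picked because the groups do not overlap reach about this p by that choice, so it adds nothing to the separation.

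Lgr5, which encodes a receptor for R-spondins that strengthens Wnt signalling, had the widest difference of the 20 genes. It was 5.22, 5.65 and 7.35 in treated mice and 4.37, 5.06 and 5.32 in vehicle mice. All treated mice but mouse 1 lay above every vehicle mouse, and treated mouse 6 stood apart at 7.35. The difference was 0.84 (SE 0.26, 95% interval 0.31 to 1.38, adjusted p = 0.381), and without treated mouse 6 it was 0.58. Wls, which carries Wnt ligands to the cell surface and was the only other measured member of the Wnt and Notch list, differed by 0.26 (SE 0.17, adjusted p = 0.864).

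Genes of the endoplasmic reticulum, vesicles and GABA receptors made up most of the rest with higher levels. Reep1, which shapes the tubular endoplasmic reticulum of axons, was 9.55, 9.75 and 9.90 against 9.28, 9.41 and 9.77, a difference of 0.28 (SE 0.09, adjusted p = 0.381). Rab3c, a GTPase of synaptic vesicles, was 9.77, 10.79 and 11.04 against 9.51, 9.84 and 10.44, a difference of 0.61 (SE 0.23, adjusted p = 0.563). Treated mice above every vehicle mouse numbered 5 of 6 for Rab3c and 2 of 6 for Reep1, and treated mouse 5 was the lowest treated mouse for both. Gabrg1, a GABA-A receptor subunit gene, differed by 0.60 (SE 0.23, adjusted p = 0.563), and by 0.37 without treated mouse 2, its highest mouse. Bex1, an X-linked gene of neurons, differed by 0.45 (SE 0.16, adjusted p = 0.519). Glud1, which encodes mitochondrial glutamate dehydrogenase, was 11.40, 11.56 and 11.66 against 11.03, 11.38 and 11.52, a difference of 0.19 (SE 0.07, adjusted p = 0.563). Glud1 had the smallest difference of the 20 genes and one of the smallest SE.

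**Figure D2:**
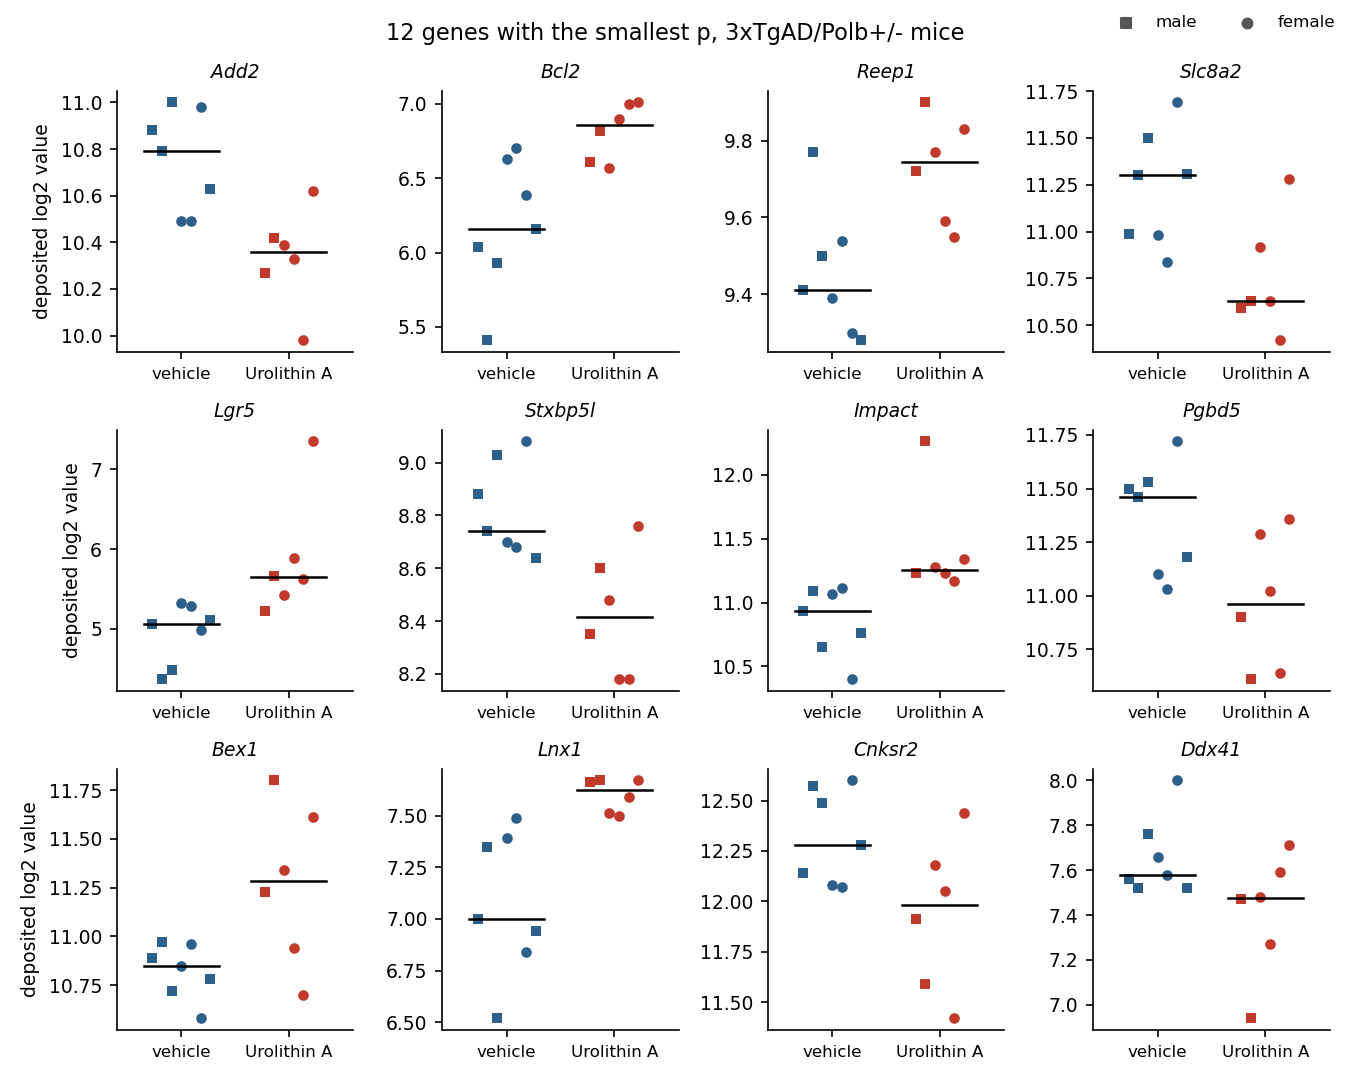
Deposited log2 values (y axis) of the 12 genes with the smallest p are shown for each 3xTgAD/Polb+/- mouse, vehicle (7) in blue and Urolithin A (6) in red, squares for males, circles for females and lines for medians. Impact and Lnx1 separate the groups, while 1 treated mouse lies far above the rest for Lgr5 (7.35) and for Impact (12.26).

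4 of these genes, chosen after their values were seen, are set beside the vehicle-treated wild-type mice. Impact averaged 11.39 ± 0.31 (SD, n = 7) in wild-type mice, 10.86 ± 0.27 (n = 7) in vehicle and 11.42 ± 0.42 (n = 6) in treated 3xTgAD/Polb+/- mice. Rab3c averaged 10.70 ± 0.48, 10.01 ± 0.38 and 10.65 ± 0.46 in the same order, and Epha4, an ephrin receptor gene, 9.64 ± 0.51, 10.15 ± 0.35 and 9.61 ± 0.18. The nearness of the treated and wild-type means of these 3 genes is a description of genes picked for it, and no difference passed. The limma adjusted p of vehicle against wild type was 0.178 for Impact, 0.178 for Rab3c and 0.180 for Epha4. Bcl2 averaged 6.40 ± 0.26 in wild type, 6.18 ± 0.45 in vehicle and 6.82 ± 0.19 in treated mice, so there the treated mean was above both. The vehicle mice enter both differences, so the side-by-side values are not independent.

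The 5 highest and 5 lowest differences belonged mostly to genes with a wide SE. Cbln1, which encodes a secreted organizer of synapses, was 5.56, 6.67 and 9.13 in treated mice and 4.61, 5.37 and 7.81 in vehicle mice, a difference of 0.87 (SE 0.56, adjusted p = 0.864). It was 0.30 without treated mouse 2, so this value rested on 1 mouse. Cbln1 was also the only measured gene of the list for thalamus and other regions, and a difference in dissection was not tested. Cpne2, a copine gene, differed by 0.69 (SE 0.46), which was 0.46 without treated mouse 1. Cd74, the invariant chain of class II antigen presentation, differed by 0.65 (SE 0.55), which was 0.35 without treated mouse 3. Klk6, a protease gene of oligodendrocytes, differed by -0.66 (SE 0.70), ranging from 2.55 to 7.31 in vehicle mice alone, and by -1.13 without vehicle mouse 1. A2m, a protease inhibitor gene, differed by -0.57 (SE 0.82), or -0.23 without treated mouse 6, and Gabrd, which encodes an extrasynaptic GABA-A subunit, by -0.54 (SE 0.44). For Gabrd 4 of 6 treated mice lay below every vehicle mouse and treated mouse 6 lay above every vehicle mouse at 9.34; without it the difference was -0.87. Epha4 (-0.54, SE 0.23, adjusted p = 0.698) and Bcl6, which encodes a transcriptional repressor (-0.53, SE 0.24, adjusted p = 0.832), were the only members of the 5 lowest with an unadjusted p below 0.05.

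All 20 leading genes had the same sign in females and in males, although the choice of genes by the pooled p favours this. The estimate in males was the wider of the pair for 18 of 20, and it rested on 2 treated males. Bcl2 differed by 0.30 in females and 0.83 in males, Impact by 0.40 and 0.89, and Stxbp5l by -0.42 and -0.35. In a fit with separate group means by sex, 14 genes (1.84%) in females and 32 (4.21%) in males had an unadjusted p below 0.05, and 0 passed after adjustment in either sex. The test of the difference between the sexes gave 4 genes (0.526%) at an unadjusted p below 0.05 and 0 after adjustment, with a smallest adjusted p of 0.999. These 4 were Ppp1cc (female minus male 0.40), a phosphatase subunit gene, Cbln1 (-2.39), Phyhip (0.52) and Tmcc1 (0.36). Mfn1, the mitochondrial fusion gene, was the next at -0.40 (-0.06 in females and 0.34 in males, unadjusted limma p 0.0607). The median SE of the sex difference was 0.31, against 0.15 in the main comparison.

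**Figure D3:**
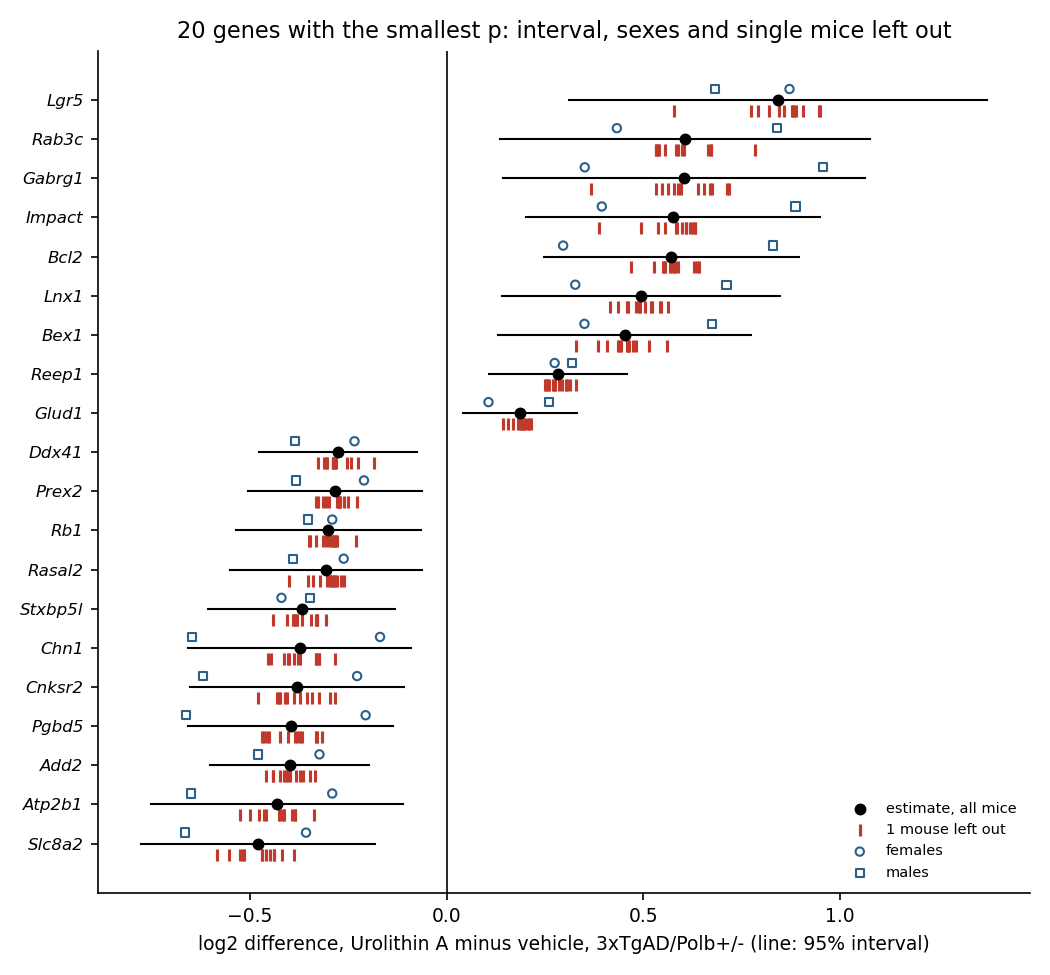
For the 20 genes with the smallest p, the log2 difference (Urolithin A minus vehicle, x axis) is shown with its 95% interval, with red ticks for the value when 1 of the 13 mice is left out and open symbols for females and males. No tick and neither sex crosses 0 for these genes, and Lgr5 spans 0.58 to 0.95 over the omissions.

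Gene lists were read by counts, medians and members, beside the 46.6% of all genes with a higher mean and the median of -0.01. No member of any list passed the adjusted threshold. Of 45 lists, 30 had at least 3 measured members, and their median log2 differences ran from -0.38 (complement) to 0.16 (synaptic vesicle and presynaptic endocytosis). The lists were chosen with earlier results of these data known, so their counts describe these mice only.

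Synaptic vesicle genes had the highest median. In that list 14 of 18 members were higher, with a median of 0.16, which stayed between 0.10 and 0.21 as single mice were left out. The mean of the list was 10.93, 11.12 and 11.31 in treated mice and 10.80, 10.89 and 11.18 in vehicle mice, so the groups overlapped. After Rab3c came Sv2a, a vesicle glycoprotein gene (0.18, SE 0.08, adjusted p = 0.832), Rab3a (0.23, SE 0.14) and Syngr1, a synaptogyrin gene (0.23, SE 0.14). The SNARE and vesicle fusion list had 12 of 16 members higher with a median of 0.04, including Snap47 (0.26, SE 0.12), while Stxbp5l and Stx6 (-0.19, SE 0.11) were lower. The median of the SNARE list was -0.00 without treated mouse 6, which had the highest mean of this list (10.98) of the 13 mice.

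On the postsynaptic side the values lay the other way. All 5 measured members of the postsynapse list were lower, with a median of -0.19; Dlg3, a scaffold gene of the PSD-95 family, differed by -0.19 (SE 0.11, adjusted p = 0.855). The mean of the list was 10.88, 11.19 and 11.61 in treated mice and 11.20, 11.32 and 11.56 in vehicle mice, so the treated range enclosed the vehicle range. The median was -0.11 without treated mouse 2, and -0.04 in females (2 of 5 higher) and -0.38 in males. Among receptors and channels, Chrm1 and Chrm3, which encode muscarinic acetylcholine receptors, differed by -0.38 (SE 0.16, adjusted p = 0.698) and -0.44 (SE 0.28, adjusted p = 0.864). Scn8a, a sodium channel gene, differed by -0.20 (SE 0.11), and Cacng8, an auxiliary subunit gene of AMPA receptors, by -0.38 (SE 0.21). Kcnq5, a potassium channel gene, lay the other way at 0.27 (SE 0.17). The ion channel list held 5 of 8 lower and 3 higher with a median of -0.07, and after median centring 4 of 8 were higher. Ppp3r1, the regulatory subunit gene of calcineurin, differed by -0.25 (SE 0.12, adjusted p = 0.832), and Ptprn, a dense-core vesicle gene, by 0.28 (SE 0.12, adjusted p = 0.735). In the inhibitory list 4 of 5 members were lower with a median of -0.06, and Gabrg1 was the exception. This direction was not stable. In females 3 of 5 were higher (median 0.08), and without treated mouse 2 also 3 of 5 (median 0.02).

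Mitochondrial and protein quality genes were mostly higher by small amounts. The oxidative phosphorylation and mitochondria list had 14 of 16 members higher with a median of 0.09, and besides Glud1 its smallest p belonged to Atp5a1, a subunit gene of ATP synthase (0.12, SE 0.07, adjusted p = 0.855), and to Got1, a cytosolic aminotransferase gene (0.15, SE 0.09). All 7 proteasome genes were higher, with a median of 0.08, among them Psmc1 (0.12, SE 0.08) and the assembly factor gene Psmg1 (0.09, SE 0.06). In females 7 of 7 were higher (median 0.13), but in males 4 of 7 (median 0.03). After quantile normalization, with estimated sample weights and without vehicle mouse 5, 6 of 7 were higher. The treated and vehicle groups overlapped in the mean of the proteasome list. Heat shock and folding genes were higher in 15 of 18 cases with a median of 0.06, led by the co-chaperone gene Stip1 (0.21, SE 0.09, adjusted p = 0.698) and the chaperonin gene Cct3 (0.13, SE 0.06, adjusted p = 0.832). Hsp90aa1, a cytosolic chaperone gene, differed by 0.16 (SE 0.09). Without treated mouse 1 the median of the heat shock list was -0.01. In the ubiquitin list 11 of 14 members were lower with a median of -0.14, including Kctd12 (-0.33, SE 0.20) and Kctd1 (-0.35, SE 0.24).

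Genes of the process for which Urolithin A is best known were few on the table. Mitophagy and autophagy were represented by Atg14, a gene of autophagosome initiation (-0.08, SE 0.08, 95% interval -0.24 to 0.09), and Gabarapl1, a gene of the autophagosome membrane (0.14, SE 0.08, 95% interval -0.03 to 0.31). These 2 genes were named because no other member of their list was measured. Each interval lay within 0.5 of no difference. In the lysosome list 10 of 16 members were higher with a median of 0.03, including Atp6ap2, an accessory gene of the proton pump (0.22, SE 0.10, adjusted p = 0.832), and Acp2, a lysosomal phosphatase gene (0.11, SE 0.07). The direction of this list was not stable: its median was below 0 in 4 of 13 single-mouse omissions, at -0.05 without treated mouse 5 (10 of 16 lower), and was -0.03 in females.

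Glial and vascular lists had mostly lower values, with wide spread between mice. The complement list had 4 of 4 members lower, with a median of -0.38: C1qa, C1qb and C1qc, the chains of C1q made by microglia, differed by -0.40 (SE 0.39), -0.38 (SE 0.35) and -0.38 (SE 0.35), and Serping1, a complement inhibitor gene, by -0.21 (SE 0.37). C1qa was 9.72, 10.45 and 11.04 in treated mice and 9.10, 10.52 and 12.01 in vehicle mice, so the vehicle range enclosed the treated one. Without vehicle mouse 6 the list median and the difference of C1qa were both -0.22. Disease-associated microglia genes were lower in 6 of 7 cases with a median of -0.09, including Tyrobp (-0.30, SE 0.40) and Csf1 (-0.23, SE 0.28). Trem2, the microglial receptor gene, was the exception at 0.17 (SE 0.38), a value that was -0.27 without vehicle mouse 1, which stood at 1.32. The median of the disease-associated list was 0.04 without vehicle mouse 6 (5 of 7 higher) and 0.01 without treated mouse 6 (4 of 7 higher). The general microglia list had 4 of 4 lower with a median of -0.14, which was 0.05 without vehicle mouse 6. Without the sex term that median was 0.004 with 2 of 4 higher, and the disease-associated median was -0.02 with 5 of 7 lower. The unadjusted mean of the general list was 9.075 in treated and 9.07 in vehicle mice. The mean of the disease-associated list ran from 9.42 to 10.07 in treated mice and from 8.51 to 10.70 in vehicle mice, and that of the general list from 8.54 to 9.50 and from 7.70 to 10.22. Both lists thus spread less among treated than among vehicle mice, a difference in spread that was not tested.

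In females the medians of the complement, disease-associated microglia and general microglia lists were -0.66, -0.46 and -0.47, and in males -0.21, 0.06 and 0.02. No member of these lists was among the 4 genes with an unadjusted sex difference, so the sexes were not shown to differ. The endothelium list had 7 of 7 lower with a median of -0.25, which was -0.40 in females and -0.04 in males. The median was -0.16 without vehicle mouse 1, -0.16 without vehicle mouse 5 and -0.09 with estimated sample weights. Its mean was 7.59, 7.79 and 8.08 in treated mice and 7.53, 8.07 and 8.26 in vehicle mice, again with overlap. Its smallest p belonged to Pecam1 (-0.25, SE 0.17, adjusted p = 0.864), Esam (-0.26, SE 0.18), the glucose transporter gene Slc2a1 (-0.18, SE 0.14) and the VEGF receptor gene Flt1 (-0.26, SE 0.21). Zeb2, a transcription factor gene, differed by -0.40 (SE 0.22, adjusted p = 0.855).

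Oligodendrocyte and myelin genes were lower in 32 of 35 cases with a median of -0.15. The mean of the list was 9.09, 9.75 and 10.73 in treated mice and 9.07, 10.11 and 10.52 in vehicle mice, so the ranges of the groups were nearly the same. The smallest p in the list belonged to the exception Cdk18, a kinase gene, which was higher by 0.44 (SE 0.18, adjusted p = 0.569). Next were Dock10 (-0.51, SE 0.26, adjusted p = 0.855), Dbndd2 (-0.35, SE 0.25) and Myrf, the master regulator gene of myelination (-0.37, SE 0.38). The median of the list ran from -0.34 without treated mouse 5 to -0.06 without treated mouse 3. In females 33 of 35 members were lower (median -0.28) and in males 22 of 35 (median -0.08). With the mouse number as a replicate block 27 of 35 were higher with a median of 0.10, although the numbers did not pair the mice. The myelin mean moved with the first principal component of the mice. A fit of the other genes with this mean as a covariate gave 69 genes of 725 at an unadjusted p below 0.05 and 0 after adjustment.

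Most of the remaining lists had medians near that of all genes. Cytoskeletal genes held 11 of 20 lower with a median of -0.05, with Actr3b, a gene of the actin branching complex (-0.26, SE 0.13), lower and Stmn2, a microtubule regulator gene of axons (0.31, SE 0.21), higher. Splicing genes held 7 of 11 lower, but 5 of 11 after quantile normalization, with Rbm48 (-0.18, SE 0.09, adjusted p = 0.850) next after Ddx41. Chromatin genes held 11 of 13 lower, with Med13l, a Mediator subunit gene, at -0.17 (SE 0.12). The chromatin median was -0.07, and it ran from -0.10 to -0.05 as single mice were left out. In the growth signalling list 3 of 4 were higher, with Ntrk2, the BDNF receptor gene, at 0.11 (SE 0.06, adjusted p = 0.855).

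**Figure D4:**
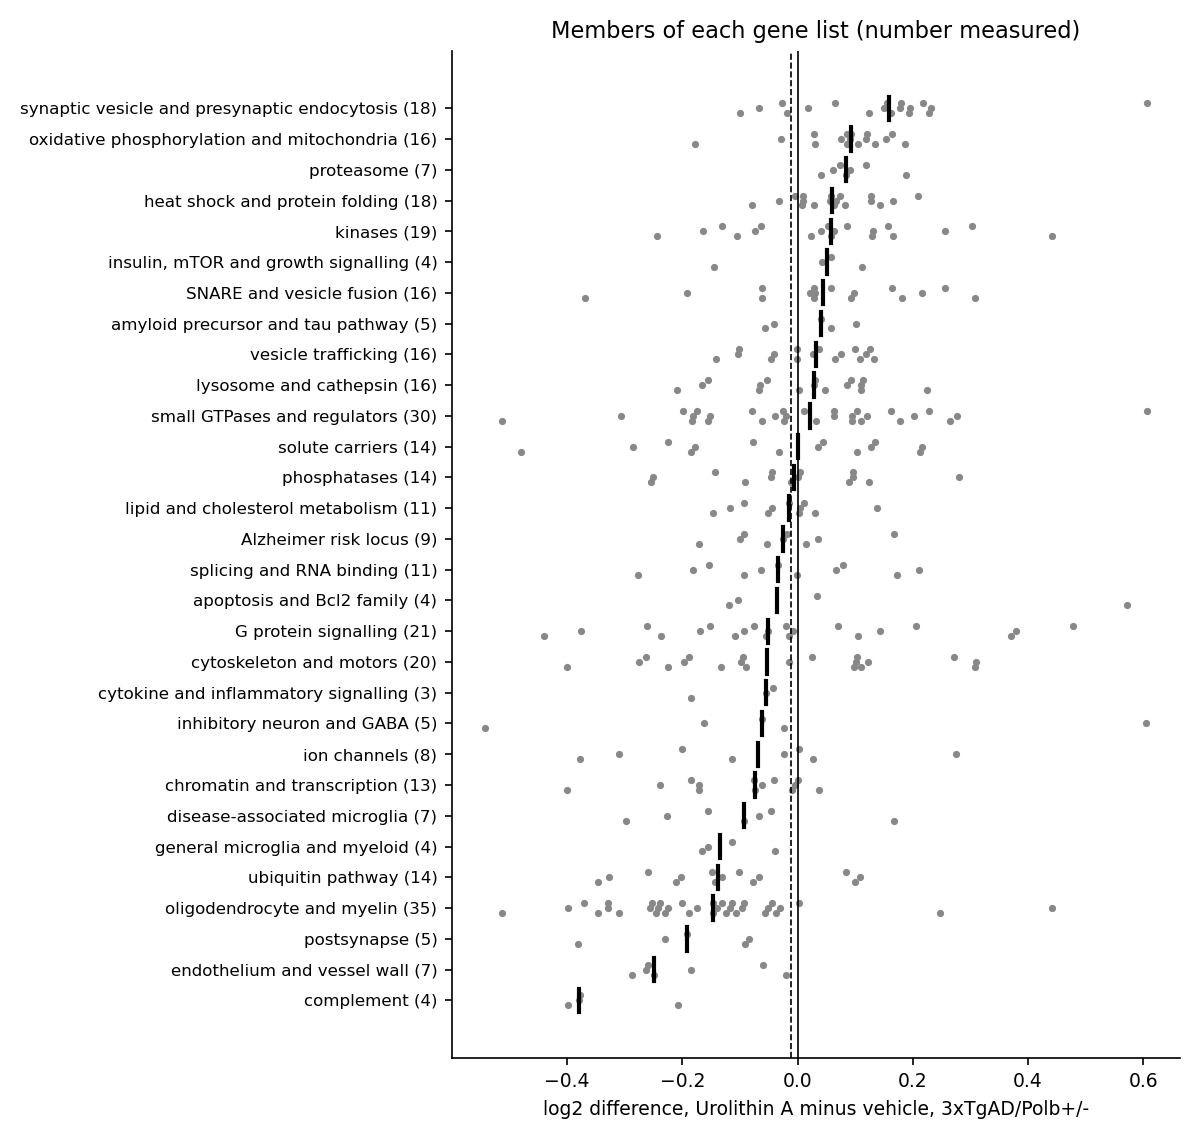
Each point is the log2 difference (Urolithin A minus vehicle, x axis) of 1 gene in 3xTgAD/Polb+/- mice, for the 30 lists with at least 3 measured genes (number measured in brackets); black bars are list medians and the dashed line is the median of all 760 genes (-0.01). List medians run from -0.38 for complement to 0.16 for synaptic vesicle genes, and the points of most lists lie on both sides of 0.

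The same treatment in 3xTgAD mice with both Polb copies gave a second effect that shares no mouse with the first. There 0 genes passed after adjustment, 71 (9.34%) had an unadjusted p below 0.05, and the median log2 difference was -0.05. Across the 760 genes the 2 effects correlated with a Pearson r of 0.40 and a Spearman rho of 0.40, given as a description, since genes are not independent replicates. The r was 0.35 without the 35 myelin genes and 0.37 after quantile normalization. Of the 20 leading genes 15 had the same sign in 3xTgAD mice, beside 475 of all 760 genes (62.5%). Lnx1 differed by 0.50 in 3xTgAD/Polb+/- and 0.41 in 3xTgAD mice, and Prex2 by -0.28 and -0.25.

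The difference between the 2 effects was tested as an interaction. It gave 0 genes after adjustment (smallest adjusted p 0.875) and 29 (3.82%) at an unadjusted p below 0.05, of which 18 were more positive and 11 more negative in 3xTgAD/Polb+/- mice. The 5 with the smallest p were Glud1 (0.19 against -0.16, difference 0.35, SE 0.10), Rasal2 (-0.31 against 0.20, difference -0.51, SE 0.16), Psmg1 (0.09 against -0.17, difference 0.26, SE 0.08), Fam171a1 (0.06 against -0.34, difference 0.40, SE 0.13) and Gabrg1 (0.60 against -0.31, difference 0.91, SE 0.31). For each of them the 2 genotypes had opposite signs. Bcl2 (0.57 against 0.09) and Slc8a2 (-0.48 against -0.00) also had an unadjusted interaction p below 0.05, at 0.0352 and 0.0231 by limma. Both were among the 20 leading genes, whose choice by the main difference favours a small interaction p. Of those 20 genes 7 had an unadjusted interaction p below 0.05, beside 3.82% of all genes. The genotypes were therefore not shown to differ for any gene, nor to be alike, with a median SE of 0.21 for the difference.

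By list, the counts lay close for myelin, where 32 of 35 members were lower in 3xTgAD/Polb+/- and 34 of 35 in 3xTgAD mice, with medians of -0.15 and -0.31. Over all 760 genes 271 (35.7%) had a higher mean in 3xTgAD mice, against 46.6% in 3xTgAD/Polb+/- mice, and the list counts are to be read beside these shares. Oxidative phosphorylation genes were higher in 14 of 16 cases in 3xTgAD/Polb+/- and in 4 of 16 in 3xTgAD mice. Proteasome genes were higher in 7 of 7 and 0 of 7, and heat shock genes in 15 of 18 and 6 of 18. The proteasome count in 3xTgAD/Polb+/- males alone was 4 of 7. In 3xTgAD mice, where most genes were lower, the oxidative phosphorylation and heat shock counts were near the share of all genes. Ubiquitin genes were higher in 3 of 14 and 2 of 14 cases, so that list lay the same way in both genotypes. The medians of the first 3 lists were 0.09 against -0.07, 0.08 against -0.07 and 0.06 against -0.03. The median of all genes in 3xTgAD mice was -0.05, so the 3 list medians lay near it there. In each of these 3 lists 1 member (Glud1, Psmg1 and Cct3) had an unadjusted interaction p below 0.05 and none passed after adjustment.

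**Figure D5:**
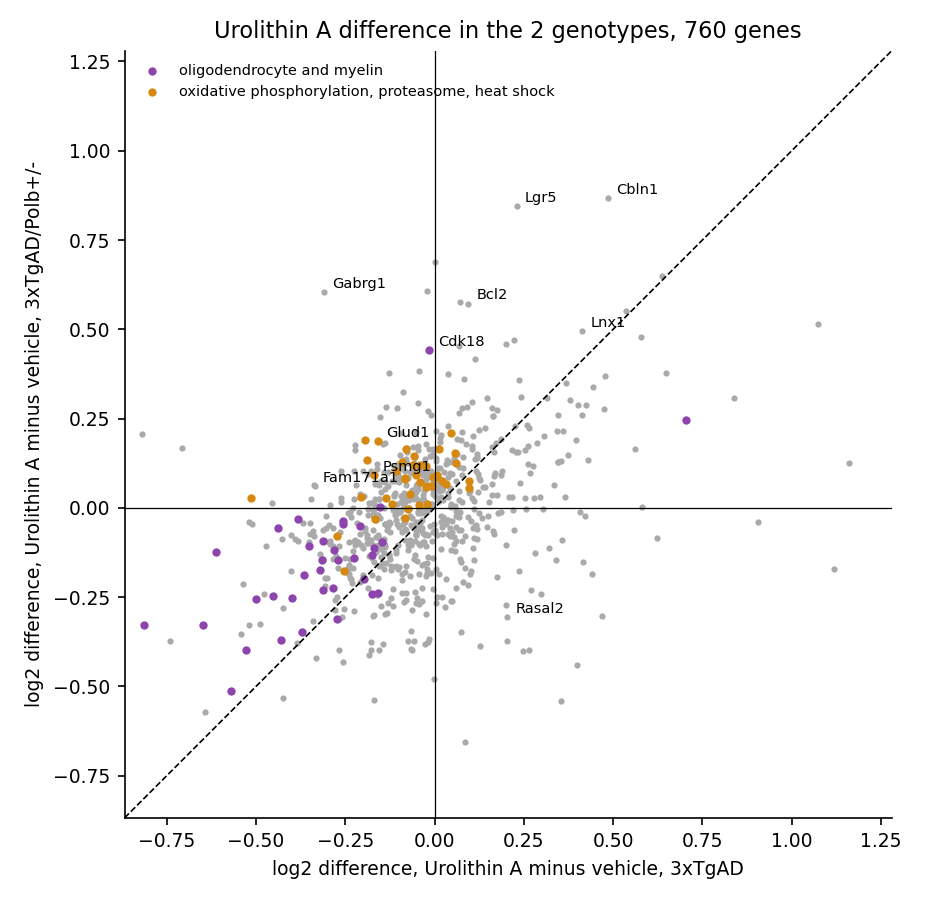
Each point is 1 of 760 genes, with the log2 difference of Urolithin A against vehicle in 3xTgAD mice on the x axis and in 3xTgAD/Polb+/- mice on the y axis; the dashed line marks equal differences. Myelin genes (purple) lie mostly below 0 on both axes, while oxidative phosphorylation, proteasome and heat shock genes (orange) lie mostly above 0 on the y axis and below it on the x axis. Most of the 760 genes also lie below 0 on the x axis.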

How the data were processed

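Hippocampal total RNA was measured on the NanoString nCounter platform, in which barcoded probes are counted without amplification. The deposited values are log2 values already normalized by the authors, 1 for each of 760 genes in each of 35 mice. The series text names the Rosalind platform. Which reference the values were normalized to, how background was treated and what the raw counts were is not stated in the labels or the file. Counting depth is therefore unknown, and its part in the precision, beside the number of mice, was not tested. Values were used as deposited, with no filter or rescaling. Of the symbols, 750 matched the RefSeq gene table of GRCm38.p6. No 2 of the 13 mice had more than 3.16% equal values (within 0.005).

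Tests used limma 3.58.1 in R 4.3.3 (lmFit, contrasts.fit, eBayes), two-sided, with 5 group means and sex, Benjamini-Hochberg adjusted over 760 genes. The labels used here give no batch, so none was tested. The mice are separate animals by their labels, numbered as labelled. Named genes were the 20 with the smallest p, the 5 highest and 5 lowest differences, App and Mapt, at most 4 members per described list, taken by p, genes without overlap and the 5 smallest p of each interaction; members of lists with fewer than 3 measured genes were named after their values were seen. The members and lists were chosen with earlier results of these data known. Polb was not analysed here, and some other genes this rule would name are not reported here. The fit was tested on simulated data. Alternatives were other scalings, no sex term, sample weights, moderated trend, dim-gene filters, a replicate block, a myelin covariate, each sex, and single mice left out.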

Additional observations from a re-analysis of the deposited data

Results flagged for a closer look

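In several of the genes named above 1 mouse lay far from the rest of its group of 6 or 7, by a rule (Dixon's) that marks about 5% of groups by chance. In treated mouse 6, Lgr5 was 7.35 with the nearest treated mouse at 5.89, Gabrd was 9.34 with the nearest at 7.89, Rasal2 was 9.74 with the nearest at 9.23, and Kctd1 was 9.52 with the nearest at 8.71. Impact was 12.26 in treated mouse 2, with the nearest at 11.34. Rab3c was 9.77 in treated mouse 5, with the nearest at 10.58. In vehicle mouse 1, Mapt was 10.34 with the nearest at 11.12, and Trem2 was 1.32 with the nearest at 4.29. Treated mice 5 and 6 were also the highest or lowest of their group for 57.0% and 51.8% of the 760 genes. The other treated mice ran from 14.3% (mouse 4) to 31.4% (mouse 2). Vehicle mice ran from 8.42% (mouse 3) to 44.3% (mouse 1), with vehicle mouse 7 at 41.4%. Some mouse of a group must hold each end for every gene, so these shares are a description.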

How the results depend on the processing

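The count of 0 genes past the adjusted threshold held under other scalings, without the sex term, with only the 13 mice, with a moderated trend, without dim genes and within each sex. It was 20 with estimated sample weights (162 genes at an unadjusted p below 0.05; 14 of the 20 were among the 20 leading genes) and 0 to 1 with single mice left out (28 to 59 unadjusted). The unadjusted count of 43 was 69 with the myelin covariate, 14 in females and 32 in males. Leaving out treated mice 5 and 6 together, an omission chosen after seeing the data, gave 44. Bcl2, Lgr5, Gabrg1, Cbln1, Klk6 and Trem2 were among the dimmest 10% of genes, so the fit without those genes did not test them. The labels number the mice of both groups, but same-numbered mice deviated together in 1 of 6 pairs (r above 0.1; range -0.40 to 0.22) and none correlated best with its own number, so the numbers do not pair the mice; with the number as a replicate block there were 23 unadjusted genes and 0 adjusted. Signs turned in one sex for A2m (0.38 in males), App (-0.0025 in males), Serping1 (0.12 in males), Csf1 (0.0575 in males), Esam (0.0825 in males), Flt1 (0.025 in males), Mcl1 (0.0050 in males), Fam171a1 (-0.07 in males, -0.0065 with weights), Cbln1 (-0.0675 in females), Mapt (-0.017 in females and -0.012 to 0.16 with single mice left out, the lowest without vehicle mouse 1), Mfn1 (-0.063 in females), Ppp1cc (0.014 in females) and Phyhip (0.067 in females). Trem2 turned to -0.46 in females, -0.071 with quantile normalization, -0.34 with weights and ran from -0.27 (without vehicle mouse 1) to 0.34 with single mice left out. The cause was not tested.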
